A study of Mus musculus with 38 samples.

Results

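RUNX1 peaks at promoters that were present both before and after Notch stimulation were examined in Cas9-LP cells, a mouse lymphoid progenitor line. The peaks were chosen by position in the deposited lists of RUNX1 chromatin immunoprecipitation sequencing (ChIP-seq) peaks. A peak of the LP list was taken when HOMER had annotated it as promoter-TSS and when it overlapped a peak of the Phase 1 list by at least 1 bp. This gave 8590 constant promoter peaks among 31995 RUNX1 peaks in LP, or 26.8% of the list, out of 359759 peaks in all 17 lists. They made up 94.3% of the 9112 promoter peaks in LP, whereas 78.7% of the LP peaks outside promoters overlapped a Phase 1 peak. Presence in both RUNX1 lists was what the peaks were selected on, so it is not a finding, and RUNX1 scores are given as a description with no test. At the edge of the rule, the smallest overlap of a chosen peak with its Phase 1 peak was 4 bp, 16 overlapped by 50 bp or less, and the closest promoter peak left out lay 1 bp from a Phase 1 peak.

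Cas9-LP cells were derived from fetal liver progenitors of Ebf1-deficient mice with a Cas9 knock-in at Rosa26, so that all groups compared here lacked Ebf1 and expressed Cas9. LP cells were kept on OP9 stroma, Phase 1 cells had spent 2 days on OP9-DLL4 stroma, which presents a Notch ligand, and Phase 2 cells 10 days. RUNX1, CTCF, Med12 and p300 were profiled in LP and Phase 1, and Notch1-IC, the released intracellular part of the Notch1 receptor, in LP, Phase 1 and Phase 2. Guide RNAs were delivered with a retrovirus marked by hNGFR, with RUNX1 profiled after sgCTCF in LP and after sgMed12 in Phase 1, Med12 profiled after sgCbfb in Phase 1, and sgCont as the control of each. Cell identity could not be checked from RNA, since the lists hold binding sites only. The guide lists came from few cells, and they hold no measure of how far the targeted gene was lost. The study checked loss of the Cbfb, CTCF and Med12 proteins by immunoblot in Cas9-LP cells given these guides.

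Each list merges 2 replicates, so no spread between replicates could be computed. Intervals below are 95% Wilson intervals and tests are two-sided Fisher's exact tests with Benjamini-Hochberg adjustment over 26 tests, and both cover counting error between peaks, not differences between cultures. Read depth was not used here. The score is the peak score deposited by the authors, whose scale the lists do not name, and no peak in any list scored under 15. Scores were compared within a list only, except where score classes ranked in different lists were matched, as stated there.

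As background, RUNX1 binds DNA as a pair with Cbfb at a short consensus and is needed for blood and T cell development, where many of its best studied sites are enhancers. Med12 belongs to the kinase module of Mediator, which links factors on DNA to RNA polymerase II, and p300 is a histone acetyltransferase found at active promoters and enhancers. CTCF is the insulator protein that holds chromatin loops with cohesin. Promoters of widely expressed genes are often CpG islands with sites for SP, ETS, NF-Y or NRF1 factors.

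The chosen peaks sat directly on transcription starts. The median distance from peak centre to the start was -53 bp, the middle part ran from -113 to 1 bp, 5899 of 8590 peaks (68.7%) lay within 100 bp of the start, and 74.4% lay upstream of it. Closeness to the start and the upstream lean are partly set by the rule, since the promoter-TSS annotation itself reaches farther upstream than downstream. Of all, 8184 (95.3%) were nearest to a protein-coding gene. The peaks belonged to 8388 named genes, 181 of which had more than 1, with up to 4 at Hnrnpf, the gene of an RNA-binding protein. In Phase 1 the peak was centred a median of 20 bp away and was annotated as promoter at 8446 peaks (98.3%). Starts on both strands within 500 bp were found at 660 peaks (7.68%, 7.14 to 8.27%), near the 7.88% of all RefSeq starts of protein-coding genes that had an opposite start that close. The median LP score was 92.5, against 43.5 at the 18020 RUNX1 peaks outside promoters that were also found in both stages, called shared distal here. Over the 8590 peaks the LP and Phase 1 scores had a Spearman correlation of 0.94, a description over sites chosen for presence in both lists.

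Sequences of 200 bases centred on the peak are shown for 8 of these promoters, and a stretch of 30 bases for Runx1, to show what letters stood under RUNX1 peaks of different kinds. They are the plus strand of GRCm38 (RefSeq), and capitals mark consensus letters on either strand. The letters searched were TGTGGTT or TGCGGTT for RUNX, CCGGAAGT for ETS, CCAATC for NFY, GCGCATGC for NRF1, GGGGCGG for the GC-box bound by SP factors, GTGGGAA for RBPJ, through which Notch1-IC is held on DNA, and the CTCF core motif. Pim1, the gene of a serine/threonine kinase, had the highest LP RUNX1 score on a named chromosome, and Clic4 was next among peaks with CTCF. Both lacked the RUNX letters, and capitals mark GC-boxes in Pim1 and NFY letters in Clic4. Cbfb, the gene of the RUNX partner itself, held overlapping NRF1 letters.
Pim1 (chr17:29490500-29490699): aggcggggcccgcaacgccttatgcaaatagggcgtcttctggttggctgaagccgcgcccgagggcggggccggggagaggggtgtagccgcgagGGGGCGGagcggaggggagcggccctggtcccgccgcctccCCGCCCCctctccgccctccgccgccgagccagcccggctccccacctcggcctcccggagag
Clic4 (chr4:135272837-135273036): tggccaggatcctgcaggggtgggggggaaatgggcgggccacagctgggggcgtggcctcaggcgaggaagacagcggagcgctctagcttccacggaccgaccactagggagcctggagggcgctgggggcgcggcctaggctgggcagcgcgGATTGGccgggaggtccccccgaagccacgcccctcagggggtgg
Cbfb (chr8:105170422-105170621): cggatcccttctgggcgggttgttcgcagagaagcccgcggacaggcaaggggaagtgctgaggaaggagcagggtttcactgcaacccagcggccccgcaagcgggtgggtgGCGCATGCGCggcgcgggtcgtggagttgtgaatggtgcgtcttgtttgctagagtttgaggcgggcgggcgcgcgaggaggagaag
Prc1 was among the promoters with the highest Phase 1 Notch1-IC scores, and capitals mark NRF1, RBPJ and GC-box letters. Tcf7, the gene of the T cell factor TCF1, is shown for its Med12 peak that was missing after sgCbfb, with GC-box letters in capitals.
Prc1 (chr7:80294238-80294437): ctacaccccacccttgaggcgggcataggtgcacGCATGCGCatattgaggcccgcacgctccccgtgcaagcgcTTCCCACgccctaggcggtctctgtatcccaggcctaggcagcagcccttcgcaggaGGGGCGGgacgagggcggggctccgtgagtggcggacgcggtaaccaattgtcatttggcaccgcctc
Tcf7 (chr11:52283244-52283443): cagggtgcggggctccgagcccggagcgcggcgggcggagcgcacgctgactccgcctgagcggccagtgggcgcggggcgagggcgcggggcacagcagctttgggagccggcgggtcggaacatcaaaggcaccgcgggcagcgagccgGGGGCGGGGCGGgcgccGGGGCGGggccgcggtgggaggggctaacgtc
Csnk1g2, Iqgap2, Dglucy and Runx1 did hold RUNX letters. Csnk1g2 was in the LP but not the Phase 1 list of Med12 without guides, and Iqgap2 and Dglucy were among the peaks with the most RUNX letters. The Iqgap2 capitals also mark a GC-box. The Runx1 stretch lies in the UTR of the first exon of Runx1-201 (GENCODE) and shows the closely spaced pair out of 3.
Csnk1g2 (chr10:80622404-80622603): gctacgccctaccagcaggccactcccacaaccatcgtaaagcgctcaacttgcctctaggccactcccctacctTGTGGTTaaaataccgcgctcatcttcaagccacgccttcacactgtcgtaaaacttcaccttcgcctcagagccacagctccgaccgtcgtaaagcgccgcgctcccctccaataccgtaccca
Iqgap2 (chr13:95892536-95892735): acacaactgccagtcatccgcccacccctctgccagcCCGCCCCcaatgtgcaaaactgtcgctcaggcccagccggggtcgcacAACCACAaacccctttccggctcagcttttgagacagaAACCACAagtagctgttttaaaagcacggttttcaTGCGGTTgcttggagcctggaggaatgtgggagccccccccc
Dglucy (chr12:100778309-100778508): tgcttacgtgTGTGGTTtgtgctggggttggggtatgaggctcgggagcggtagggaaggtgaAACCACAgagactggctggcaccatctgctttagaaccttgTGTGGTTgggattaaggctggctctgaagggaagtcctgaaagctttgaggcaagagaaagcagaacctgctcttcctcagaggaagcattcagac
Runx1 (chr16:92826024-92826053): tacccaactTGTGGTTcTGTGGTTgtttat

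RUNX1 peaks at constant promoters rarely stood over a RUNX consensus. The RUNX letters occurred in 475 of 8588 central windows of 200 bp (5.53%, 5.07 to 6.03%), against 5584 of 18011 (31.0%, 30.3 to 31.7%) at shared distal peaks (odds ratio 0.130, adjusted p too small to represent and returned as 0). Windows 2 kb to either side of the constant promoters held the letters in 6.03% (5.69 to 6.40%) of cases, so the share at the centre was no higher than in these flanks. At shared distal peaks the flanks held them in 5.53%. Closer in, constant promoters showed a small local rise. Bins of 100 bp held the letters in 2.67 and 3.16% at -50 and 50 bp. The bins next to them held 2.003 and 1.72%, and the bin at -950 bp held 2.85%. RefSeq promoter windows of 200 bp ran from 150 bases before to 50 after the start of protein-coding genes. Among 21263 of them 4.30% held the letters, with 3.76% where a constant promoter peak was present and 4.64% where none was. Only 24 constant promoter peaks (0.279%) held more than 1 copy. The share was alike at low and high scores, with the letters in 6.35% of the lowest of 5 classes by LP score and in 5.59% of the highest.

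**Figure D1:**
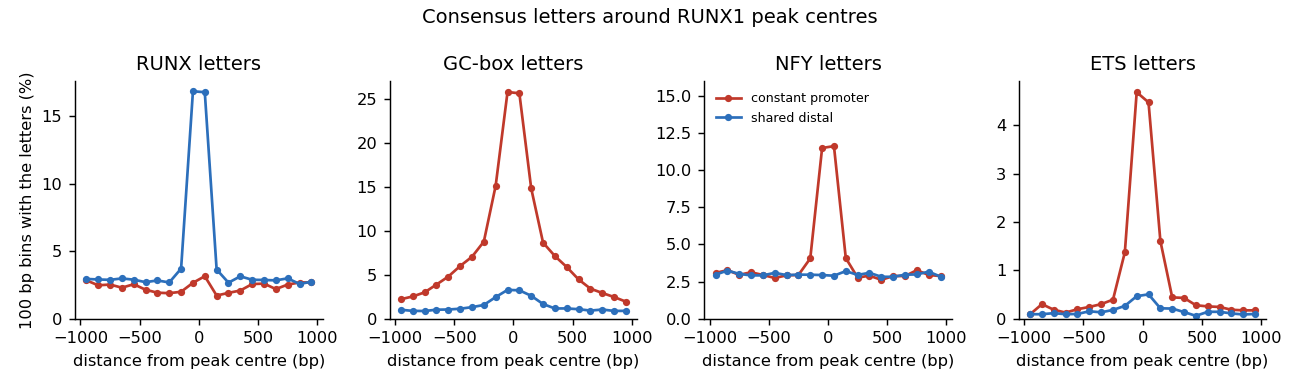
Share of 100 bp bins that hold each set of consensus letters (%, linear axes with their own range) against the distance from the RUNX1 peak centre (bp), for 8588 constant promoter peaks and 18011 shared distal peaks. In the bins at -50 and 50 bp, RUNX letters reach 16.9 and 16.8% at distal peaks and 2.67 and 3.16% at promoter peaks, where the bins next to them hold 2.003 and 1.72%. GC-box letters rise at the centre in both classes, to 3.28% at -50 bp at distal peaks and to 25.8% at promoter peaks.

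Other promoter consensus letters were common under the peaks. GC-box letters stood in 3676 windows (42.8%, 41.8 to 43.9%) against 5.72% at shared distal peaks (odds ratio 12.3). NFY letters, the CCAAT box, stood in 1766 (20.6%, 19.7 to 21.4%) against 5.46% (odds ratio 4.48, exact adjusted p = 2.0e-289). ETS letters stood in 741 (8.63%, 8.05 to 9.24%) against 0.933% (odds ratio 10.0, exact adjusted p = 1.5e-212), and NRF1 letters in 484 (5.64%, 5.17 to 6.14%) against 0.594% (odds ratio 9.99, exact adjusted p = 4.0e-139). The adjusted p for the GC-box was returned as 0. At least 1 of these 4 sets was present in all but 3287 of the 8588 windows. Compared with all RefSeq promoters, where 27.5% held the GC-box, 14.4% NFY, 4.57% ETS and 2.97% NRF1 letters, promoters with a constant RUNX1 peak held them in 44.2%, 18.9%, 9.66% and 5.85% of cases, and promoters without one in 16.97%, 11.6%, 1.36% and 1.15%. NFY letters went with peak score: they stood in 11.2% of the lowest of the 5 classes by LP score and in 35.9% of the highest, while ETS letters stood in 6.06, 11.3, 10.4, 9.20 and 6.17% from the lowest class to the highest.

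Base composition differed in the same way. The median GC content of the windows was 65.5% at constant promoters and 50.5% at shared distal peaks, and CpG dinucleotides made up a median of 18% and 3% of bases. Within 5 classes of GC content the odds ratio of the RUNX letters was 0.279, that of the GC-box 2.97, that of NRF1 3.52 and that of ETS 5.31, all in the same direction, and how much of the remaining difference goes with base composition inside a class was not tested. A match of letters is a description of the window and does not show which factor was bound.

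Nearly every constant promoter peak carried Mediator and p300 in both stages. Med12 overlapped 8285 peaks in LP (96.4%, 96.0 to 96.8%) and 8073 in Phase 1 (94.0%, 93.5 to 94.5%), where 84.7% and 78.1% of all LP RUNX1 peaks did. p300 overlapped 8328 in LP (96.9%, 96.6 to 97.3%) and 8080 in Phase 1 (94.1%, 93.5 to 94.5%), where 90.8% and 80.6% of all LP RUNX1 peaks did. All 4 coactivator lists covered 7589 peaks (88.3%, 87.7 to 89.0%), and 48 (0.559%) were in none of them. The Med12 and p300 peaks were centred close by, with a median of 26 bp from the RUNX1 centre for Med12 in either stage and of 28 bp in LP and 32 bp in Phase 1 for p300.

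Against shared distal peaks, the shares with coactivators were higher at constant promoters, but the differences were smaller or turned within classes of LP RUNX1 score. Shared distal peaks carried Med12 at 85.9% in LP (odds ratio 4.47, exact adjusted p = 1.1e-176) and at 89.4% in Phase 1 (odds ratio 1.86, exact adjusted p = 4.2e-36). They carried p300 at 92.4% in LP (odds ratio 2.62, exact adjusted p = 5.9e-53) and at 90.0% in Phase 1 (odds ratio 1.75, exact adjusted p = 4.0e-29). Within 5 classes of LP RUNX1 score (Mantel-Haenszel odds ratios and test) LP Med12 stayed higher at constant promoters, at 1.54, and passed, and with 1 peak a gene it was 2.94. Phase 1 Med12 turned to 0.880 and passed in that direction, while LP p300 at 1.101 and Phase 1 p300 at 0.973 did not pass. Within these classes, LP Med12 was thus the one list of these 4 with a higher share at constant promoters by the test. The Phase 1 lists were not matched on Phase 1 RUNX1 score.

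Promoter peaks of a single stage were less often covered. The 522 LP-specific promoter peaks carried LP Med12 at 68.4% (64.3 to 72.2%, odds ratio 12.6, exact adjusted p = 7.1e-92) and LP p300 at 78.5% (74.8 to 81.9%, odds ratio 8.68, exact adjusted p = 2.2e-52). The 694 Phase 1-specific promoter peaks carried Phase 1 Med12 at 69.2% (65.6 to 72.5%, odds ratio 6.96, exact adjusted p = 2.0e-78) and Phase 1 p300 at 76.9% (73.7 to 79.9%, odds ratio 4.75, exact adjusted p = 6.6e-44). Their RUNX1 peaks were also smaller, with median scores of 31.2 in the LP list and 25.9 in the Phase 1 list. Within score classes the odds ratios were lower, at 3.22 for LP Med12, 3.69 for LP p300, 2.35 for Phase 1 Med12 and 2.07 for Phase 1 p300. For both Phase 1 values, constant peaks were ranked in the LP list and Phase 1-specific peaks in the Phase 1 list. Their classes are thus not of equal score.

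**Figure D2:**
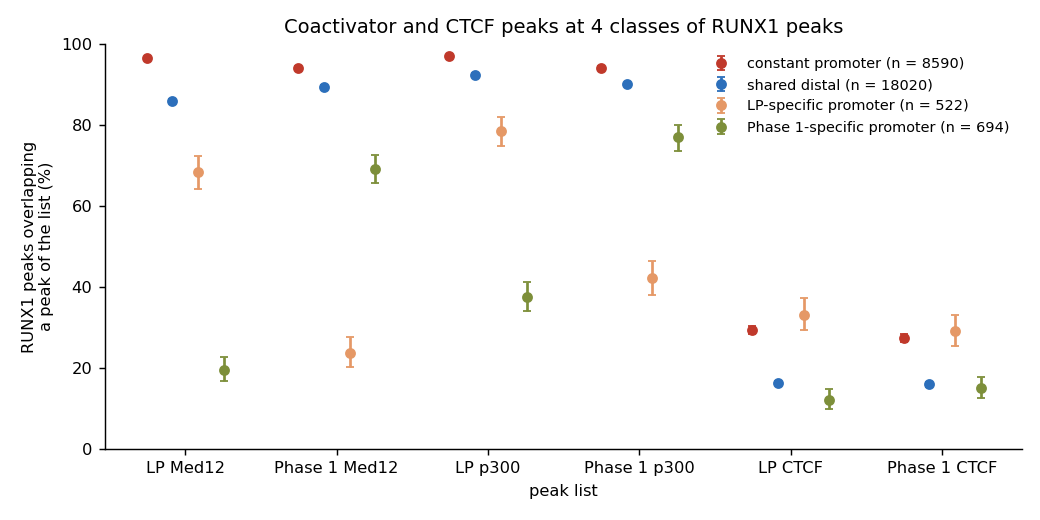
Share of RUNX1 peaks (%) that overlap a peak of each Med12, p300 and CTCF list (x axis), for constant promoter, shared distal, LP-specific promoter and Phase 1-specific promoter RUNX1 peaks, with 95% Wilson intervals as bars. Constant promoter peaks sit between 94.0 and 96.9% in the 4 coactivator lists and at 29.4 and 27.3% in the CTCF lists.

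Where a coactivator was found in 1 stage only, constant promoters leaned to LP. Med12 was listed in LP only at 393 peaks and in Phase 1 only at 181, so that 68.5% (64.6 to 72.1%) of the 574 were LP peaks, against 39.4% (37.7 to 41.2%) of 2980 shared distal peaks (odds ratio 3.34, exact adjusted p = 1.5e-37). For p300 the counts were 341 and 93, or 78.6% (74.5 to 82.2%), against 60.5% (odds ratio 2.39, exact adjusted p = 4.7e-13). Both differences kept their direction within score classes, with odds ratios of 2.10 and 1.51. The Phase 1 lists were the longer ones, with 39132 Med12 peaks against 30020 in LP. With the lists of each pair set to equal length, distal peaks leaned to LP as well, with LP shares of 77.1 against 57.3% for Med12 (odds ratio 2.51) and of 85.7 against 81.2% for p300 (odds ratio 1.39, exact adjusted p = 0.020). A second Phase 1 Med12 list, from sgCont cells, bears on these absences: it held 234 of the 393 LP-only peaks (59.5%, 54.6 to 64.3%) and 54 of the 124 peaks with Med12 in neither stage (43.5%, 35.1 to 52.3%), against 91.2% of peaks with Med12 in both. The sgCont list held 97 of the 181 Phase 1-only peaks (53.6%, 46.3 to 60.7%), an interval that overlaps that of the LP-only peaks. It thus did not tell the LP-only from the Phase 1-only peaks. Absence from the Phase 1 Med12 list was often not repeated in the other list of the same stage.

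Named promoters give the scores behind these counts. Csnk1g2, the gene of a casein kinase 1 isoform (chr10:80622334-80622674, outside GENCODE genes), had scores of 555 for RUNX1 and 450 for Med12 in LP and no Phase 1 Med12 peak, but a score of 201 in the sgCont Med12 list. Mbd3, a subunit of the NuRD repressor complex (chr10:80399491-80399831), had 317 for LP Med12 and 177 in the sgCont list. Eif5a, a translation factor gene (chr11:69921285-69921625, in an Eif5a intron), had 359 and 160. The highest-scored peaks with Med12 in Phase 1 only were at Cbx5, which encodes heterochromatin protein HP1 alpha, Mcm7, a subunit of the replicative helicase, and Arid1a, a subunit of the BAF remodeller, with Phase 1 Med12 scores of 128, 150 and 449. Hnrnpl, Zfp687 and the histone gene H2ac7 had the highest RUNX1 scores among peaks in none of the 4 coactivator lists, at 268, 263 and 262. Of these, Hnrnpl and Zfp687 had sgCont Med12 scores of 123.2 and 105.2, and H2ac7 was in no Med12 list.

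The 3 highest RUNX1 peaks each had all 4 coactivators. The highest LP score of all, 990, was at Pisd-ps3, a pseudogene on the unplaced contig JH584304, where reads from near-identical copies may be shared, since the alignment kept reads with several best matches. Pim1 (chr17:29490430-29490770, centre 185 bp upstream of the start, in an intron of Gm26885) scored 757 in LP and 968 in Phase 1 for RUNX1, with Med12 at 770 and 346 and p300 at 388 and 444. Brpf1, a subunit of histone acetyltransferase complexes (chr6:113306510-113306850), scored 684 and 1004 for RUNX1 and was found in all 4 RUNX1 guide lists, at 77.1 for LP sgCont, 61.8 for sgCTCF, 105 for Phase 1 sgCont and 63.7 for sgMed12.

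CTCF covered a minority of constant promoters, in both stages alike. The LP list held CTCF at 2527 peaks (29.4%, 28.5 to 30.4%) and the Phase 1 list at 2349 (27.3%, 26.4 to 28.3%), where 23.2% and 22.2% of all LP RUNX1 peaks had it. At 2011 peaks CTCF was in both lists, at 516 in LP only and at 338 in Phase 1 only. Shared distal peaks had CTCF at 16.2% in LP (odds ratio 2.16, exact adjusted p = 8.3e-132) and 15.9% in Phase 1 (odds ratio 1.99, exact adjusted p = 1.3e-102). Phase 1-specific promoters had Phase 1 CTCF at 14.99% (12.5 to 17.8%, odds ratio 2.14, exact adjusted p = 1.4e-13). LP-specific promoters had LP CTCF at 33.1% (29.2 to 37.3%), and the odds ratio of 0.841 did not pass the test (exact adjusted p = 0.082). That odds ratio turned to 1.07 with a minimum score of 30 in every list, and passed at 0.782 when a peak centre had to lie inside the CTCF peak.

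CTCF was offset from RUNX1. Its centre lay a median of 103 bp from the RUNX1 centre in LP and 114 bp in Phase 1, against 73 and 77 bp at shared distal peaks. By position from the start, 15.6% of CTCF centres lay from 100 to 50 bp upstream and 8.37% in the last 50 bp before the start, where 23.3% of RUNX1 centres were. Constant promoters with and without LP CTCF had like RUNX1 scores (medians 90.1 and 93.3) and like distances from the start (-52 and -54 bp). The CTCF core motif stood in 1.82% of the central windows of those with LP CTCF and in 0.0495% of the others, and over all constant promoters in 49 windows (0.571%), fewer than the 1.12% at shared distal peaks (odds ratio 0.506, exact adjusted p = 8.0e-06). These windows reached 100 bp to each side, less than the median CTCF offset at constant promoters and more than that at shared distal peaks. Just outside, the 100 bp bins at -150 and 150 bp held the motif in 0.210 and 0.314% at constant promoters. At shared distal peaks both held it in 0.222%. How much of the lower share goes with the offset was not tested. The highest RUNX1 scores with LP CTCF were at Pim1, Clic4 and H2az2, a histone variant gene, with LP CTCF scores of 96.4, 67.3 and 85.0.

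**Figure D3:**
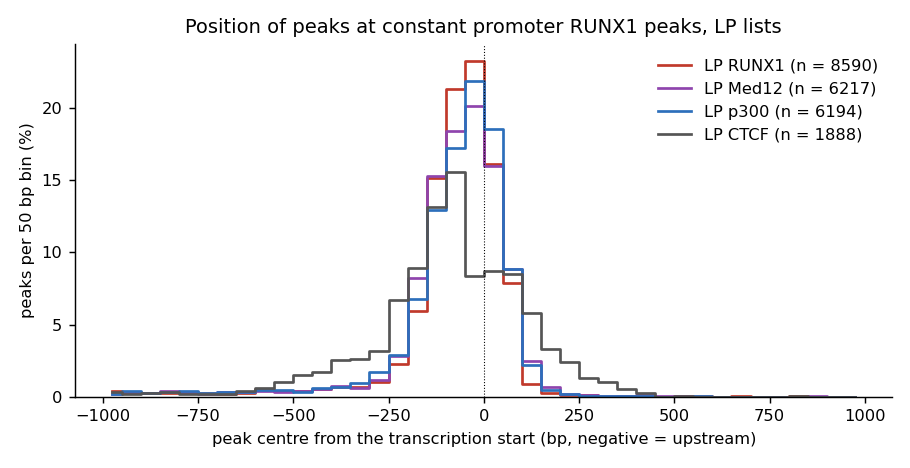
Distribution of peak centres from the nearest transcription start (bp, negative upstream) at constant promoters, as the share of peaks per 50 bp bin (%), for 8590 LP RUNX1 peaks and for the LP Med12 (6217), p300 (6194) and CTCF (1888) peaks assigned to the same start. RUNX1 and Med12 are highest in the last 100 bp before the start, and p300 in the 50 bp before (21.8%) and after it (18.5%). CTCF is highest from 100 to 50 bp upstream (15.6%) and stays at 8.37 to 8.69% from 50 bp before to 100 bp after the start.

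Notch1-IC was rare at these promoters. It overlapped 107 in LP (1.25%, 1.03 to 1.503%) against 7.13% of shared distal peaks (odds ratio 0.164, exact adjusted p = 5.6e-112), where 4.42% of all LP RUNX1 peaks had it. In Phase 1 or Phase 2 it overlapped 36 (0.419%, 0.303 to 0.580%) against 1.13% (odds ratio 0.368, exact adjusted p = 1.3e-09), where 0.753% of all LP RUNX1 peaks had it. This pooled difference came mainly from Phase 2, with 0.0931% of constant promoters against 0.993% of shared distal peaks. For Phase 1 alone the shares were 0.361% (0.254 to 0.512%) and 0.438% (0.352 to 0.546%), with intervals that overlap, and 0.347% of all LP RUNX1 peaks. Several alternatives moved these odds ratios further from 1. For LP the odds ratio was 0.0534 within score classes, 0.0480 with a minimum score of 30, 0.0967 with 1 peak a gene and 0.0621 with lists of equal length, where 4 constant promoters were left, and for Phase 1 or Phase 2 it was 0.173 within score classes and 0.150 with a minimum score of 30. The Phase 1 and Phase 2 lists used here hold fewer peaks than the study's text counts, for a reason not given in the sources used here, so these shares hold for the lists as used. By list, 31 of the 152 Phase 1 peaks (20.4%, 14.8 to 27.5%), 107 of the 1585 LP peaks (6.75%) and 8 of the 352 Phase 2 peaks (2.27%) lay at constant promoters. RBPJ letters, looked up after the counts were known, stood in 10 of the 36 windows (27.8%, 15.8 to 44.0%), in 4 of the 107 with LP Notch1-IC (3.74%) and in 3.48% of all 8588.

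The highest Phase 1 Notch1-IC scores at constant promoters were 58.2 at Cnot10, a subunit of the CCR4-NOT deadenylase (chr9:114640021-114640361), 35.3 at Tpmt, 31.3 at Zbtb11, 26.1 at Hjurp, the chaperone of the centromeric histone, and 25.9 at Prc1, which acts in cytokinesis. Cnot10 and Zbtb11 were also in the Phase 2 list, at 15.7 and 20.6. Nfe2, an erythroid and megakaryocyte transcription factor gene, was next at 25, with 37.2 in LP. The study counts Nfe2 among Notch-regulated T-signature genes that were repressed by RUNX in LP and dependent on it in Phase 1. Its RUNX1 peak scored 448 in LP and 905 in Phase 1. Rbpj had 22.6 and RBPJ letters, at a peak 977 bp upstream of a start, and Hey2, a Notch target gene, had 15.3 with RBPJ letters. Lck and Lat, genes of T cell receptor signaling, had Phase 2 scores of 16.2 and 16.8, close to the lowest score a list can hold. The Rbpj RUNX1 peak scored 110 in LP and 152 in Phase 1, and that of Hey2 71.7 and 129.

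Med12 at constant promoters was largely found again after sgCbfb. Of 7584 sgCont Med12 peaks at constant promoters, 7136 (94.1%, 93.5 to 94.6%) overlapped a peak of the sgCbfb list, against 4858 of 9262 (52.5%, 51.4 to 53.5%) at shared distal peaks (odds ratio 14.4, exact adjusted p returned as 0), where 67.8% of all sgCont peaks did. The sgCont peaks were taller at promoters, with a median score of 55.2 against 28.6, and within 5 score classes the odds ratio was 7.72. In the lowest of 5 classes of sgCont score 69.3% were found again at constant promoters and 35.7% at shared distal peaks, and in the highest class 99.3% and 82.8%. Both lists were of like length, with 19053 and 18099 peaks. In the other direction, 7134 of 7418 sgCbfb peaks at constant promoters (96.2%) and 4861 of 6235 at shared distal peaks (78.0%) had a sgCont peak.

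The 448 constant promoter peaks missing after sgCbfb included early T cell genes. Tcf7, Gata3, Rag1 and Lck each had a Med12 peak in sgCont and none after sgCbfb, while Cd5, Lat and Fyn kept theirs. So 3 of the 7 genes of the early T lineage list with a sgCont peak were found again, where 95.7% of the 6550 protein-coding genes with one were. That share covers genes of all sgCont scores, while refinding at constant promoters rose from 69.3% in the lowest of 5 score classes to 99.3% in the highest. The 7 genes were not matched on sgCont score. All 8 progenitor genes with a sgCont peak were found again, among them Kit, Flt3, Il7r and Cd34. These lists were chosen with results of these data known, so the counts are a description. RUNX1 at the same promoters was low to moderate, with LP scores of 16.3 at Tcf7, 29.4 at Gata3, 46.6 at Rag1 and 111 at Lck. The tallest lost Med12 peaks were at Mir466d (242, at a microRNA of a repeated family inside Camk1d), Itsn1 (139) and Pgls (126).

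Med12 peaks with RUNX letters were found again after sgCbfb less often by count. Of the sgCont Med12 peaks at constant promoters that held RUNX letters, 322 of 391 (82.4%, 78.3 to 85.8%) were found again after sgCbfb, against 6814 of 7193 without (94.7%, 94.2 to 95.2%), with median sgCont scores of 49.3 and 55.6. This split was made after the other results were seen and carries no test. In the sgMed12 list, 29 of 45 RUNX1 peaks with RUNX letters (64.4%, 49.8 to 76.8%) and 106 of 348 without (30.5%, 25.9 to 35.5%) were present in sgCont. From sgCont to sgMed12 the counts were 29 of 35 (82.9%, 67.3 to 91.9%) and 107 of 147 (72.8%, 65.1 to 79.3%), with intervals that overlap. From LP sgCont to sgCTCF they were 22 of 38 (57.9%) with the letters and 296 of 507 (58.4%) without.

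The RUNX1 guide lists were short and reached few of these promoters. LP sgCont held 545 of the 8590 peaks (6.34%) and sgCTCF 452 (5.26%), while Phase 1 sgCont held 182 (2.12%) and sgMed12 393 (4.58%). These promoters made up 55.9% (52.8 to 59.0%) of the 975 LP sgCont peaks and 11.7% (10.2 to 13.4%) of the 1550 Phase 1 sgCont peaks, where they were 26.8% and 22.4% of the RUNX1 lists without guides. Thus the LP guide lists drew mainly on constant promoters and the Phase 1 guide lists mainly on distal sites, and what set this difference was not tested.

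RUNX1 after sgCTCF was found again at 318 of 545 constant promoter peaks (58.3%, 54.2 to 62.4%) and at 248 of 396 shared distal peaks (62.6%, 57.8 to 67.2%), with an odds ratio of 0.836 that did not pass the test (exact adjusted p = 0.21), where 59.1% of all sgCont peaks were. Within score classes it was 0.743 and passed the Mantel-Haenszel test. Among constant promoters, those with LP CTCF were found again at 76 of 159 (47.8%, 40.2 to 55.5%) and those without at 242 of 386 (62.7%, 57.8 to 67.4%), an odds ratio of 0.545 (exact adjusted p = 0.0018), and 0.578 within score classes. Seen from the sgCTCF list, 37 of 112 peaks with LP CTCF and 96 of 340 without had no sgCont peak. The same split was also lower with LP CTCF for RUNX1 after sgMed12 in Phase 1. There 30 of 45 peaks with LP CTCF (66.7%, 52.1 to 78.6%) were found again. Without it 106 of 137 were (77.4%, 69.7 to 83.6%), with intervals that overlap and no test. The tallest sgCont peaks missing after sgCTCF were at Xrcc6, the gene of the DNA repair protein Ku70 (58.0), Nub1 (56.8) and Dop1b (52.8). Xrcc6 and Nub1 had LP CTCF scores of 104 and 178, and Dop1b was in neither CTCF list.

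RUNX1 after sgMed12 was found again at 136 of 182 constant promoter peaks (74.7%, 67.9 to 80.5%) and at 918 of 1279 shared distal peaks (71.8%, 69.2 to 74.2%), with an odds ratio of 1.16 (exact adjusted p = 0.43) and of 0.866 within score classes, which did not pass either, where 71.0% of all sgCont peaks were. The sgMed12 list was the longer one, with 2094 peaks, and 258 of its 393 peaks at constant promoters had no sgCont peak, against 667 of 1586 at shared distal peaks. The tallest sgCont peaks missing after sgMed12 were at Mir466d (71.6), Nub1 (52.7) and Slc39a13, a zinc transporter gene (49.0).

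**Figure D4:**
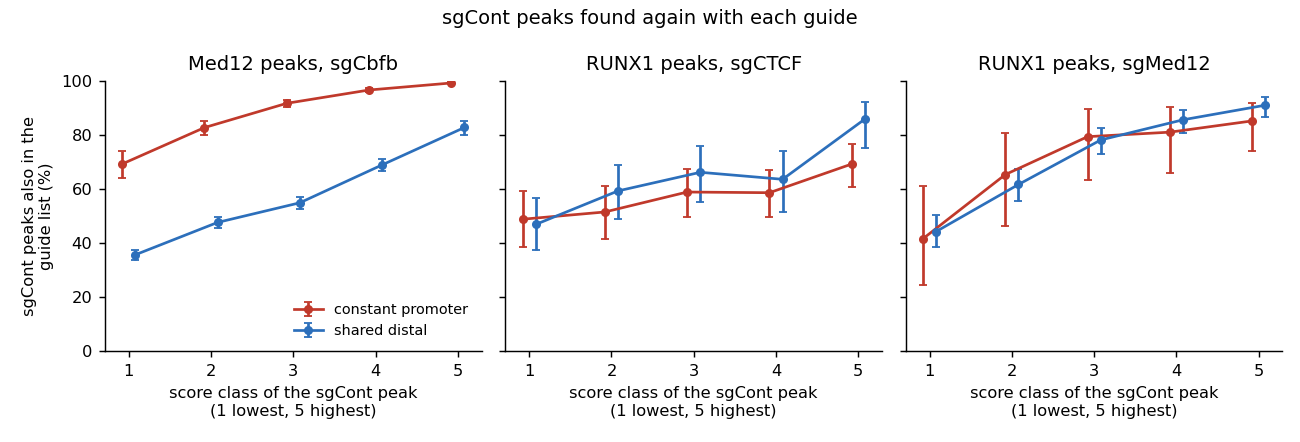
Share of sgCont peaks (%) that overlap a peak of the guide list, against the score class of the sgCont peak (5 equal classes within the list, 1 lowest), for Med12 after sgCbfb, RUNX1 after sgCTCF and RUNX1 after sgMed12, with 95% Wilson intervals as bars. Med12 at constant promoters lies above shared distal peaks in every class (69.3 against 35.7% in class 1, 99.3 against 82.8% in class 5), and the RUNX1 panels overlap in most classes.

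Genes with a constant promoter RUNX1 peak were counted by their RefSeq starts, taking a peak centre from 1 kb before to 100 bp after a start. Of 17492 protein-coding genes with a start in the table used, 7250 (41.4%) had one. Housekeeping lists were above that share. Spliceosome genes had one at 22 of 23 (95.7%, 79.0 to 99.2%), mitochondrial ribosomal protein genes at 60 of 69 (87.0%, 77.0 to 93.0%), proteasome genes at 21 of 25 (84.0%, 65.3 to 93.6%) and cytoplasmic ribosomal protein genes at 65 of 78 (83.3%, 73.5 to 90.0%). Olfactory receptor genes had one at 2 of 940 (0.213%, 0.0584 to 0.772%) and genes of other tissues at 1 of 17, the synaptic gene Syn1, whose LP score was 25.7.

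Replication-dependent histone genes stood apart in their sequence. A peak was present at 34 of 61 (55.7%, 43.3 to 67.5%), with a median LP score of 221 against 99.0 over all genes with a peak. NFY letters stood at 20 of the 34 (58.8%) against 21.8% over all, and GC-box letters at 1 of 34 (2.94%) against 43.0%. CTCF in LP was at 1 of the 34, against 28.7% over all. Histone genes lie in clusters of near-identical copies, so reads at these promoters may be shared between members.

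**Figure D5:**
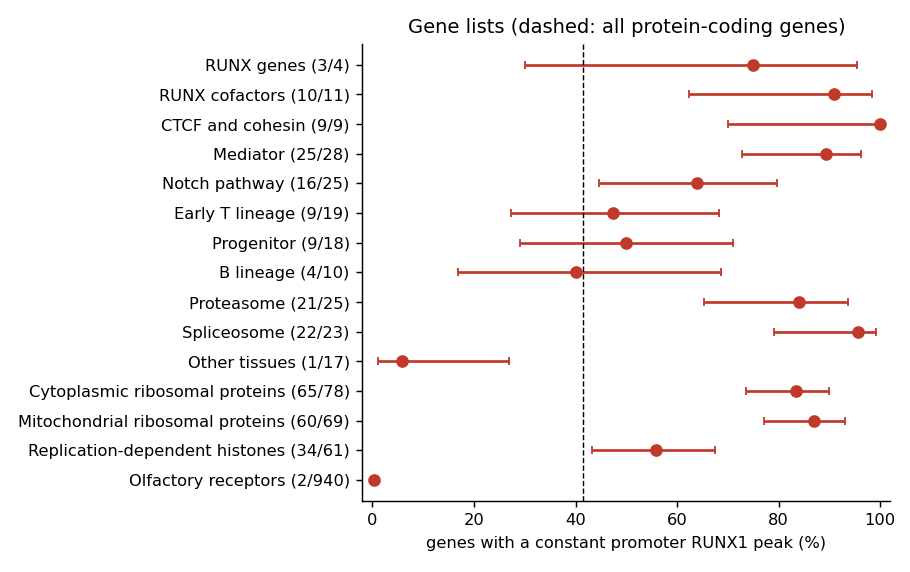
Share of genes (%) in each list with a constant promoter RUNX1 peak, with the number of such genes over the number matched to a RefSeq start in brackets and 95% Wilson intervals as bars. The dashed line is the 41.4% of all protein-coding genes, with spliceosome genes at 95.7% and olfactory receptor genes at 0.213%.

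Genes of the regulators studied often had constant RUNX1 peaks at their own promoters. For scale, 41.4% of all protein-coding genes and 83.3 to 95.7% of the genes in the housekeeping lists had one. Of the RUNX genes, Runx1, Runx3 and Cbfb had one and Runx2 did not. Runx1 (chr16:92825865-92826205) scored 308 in LP and 341 in Phase 1, with 3 copies of the RUNX letters, and Runx3 (chr4:135120308-135120648) scored 443 and 638 with 2 copies. Both carried Med12 and p300 in both stages and no CTCF, Runx3 also carried LP Notch1-IC, and both were present in all 6 guide lists. Cbfb (chr8:105170352-105170692) scored 125 and 160 and was absent from the Phase 1 RUNX1 guide lists. Of the corepressors and coactivators of RUNX, 10 of 11 had a peak, from 54.8 at Hdac2, a histone deacetylase, to 434 at Sin3a, a corepressor scaffold, with 329 at Ep300, which encodes p300, and 412 at Tle4.

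All 9 matched genes of CTCF and cohesin had a peak, where 41.4% of all protein-coding genes did. Ctcf scored 182 in LP and 149 in Phase 1, and the cohesin ring genes Smc3 and Smc1a scored 170 and 68.4 in LP. Smc3, Stag1, Pds5a and Pds5b carried CTCF in both stages, and Ctcf did not. Mediator genes had a peak at 25 of 28 (89.3%, 72.8 to 96.3%), from 34.5 at Med28 to 279 at Med29. Each carried LP Med12, as did 97.3% of all protein-coding genes with a peak. Med12 itself scored 55.0 in LP and 49.2 in Phase 1. In the Phase 1 Med12 guide lists 24 of the 25 had a sgCont peak. All 24 were found again after sgCbfb, near the 95.7% of the 6550 protein-coding genes with a sgCont peak.

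Notch pathway genes had a peak at 16 of 25 (64.0%, 44.5 to 79.8%), where 41.4% of all protein-coding genes had one. Among receptors, Notch1 scored 90.1 and Notch2 98.2 in LP, and Notch3 and Notch4 had none. Among the transcription partners, Maml1 scored 199 and Maml3 107, and Maml2 had none. Of the protease genes that release Notch1-IC, Adam10 scored 184, Psen2 172, Aph1a 157, Psenen 105 and Ncstn 64.2. Of the target genes counted, Nrarp scored 51.9, and Dtx1 and Hes5 had none. Hes1 had no RefSeq start to match and was not analysed here. The target gene Hey2, not counted here, had a peak that scored 71.7. Of the ligands, Jag1 scored 27.5, and Dll1, Dll4 and Jag2 had none. GC-box letters stood at 13 of the 16 (81.2%), where 43.0% of all genes with a peak had them.

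Lineage genes were near the share of all genes and had smaller peaks. Early T lineage genes had one at 9 of 19 (47.4%, 27.3 to 68.3%), with a median LP score of 46.6, from 16.3 at Tcf7 to 168 at Lat. Bcl11b, Lef1, Il2ra, Ptcra and Zap70 had none. All 9 carried Med12 and p300 in both stages, as did from 94.4 to 97.4% of all genes with a peak in each of the 4 lists. Progenitor genes had one at 9 of 18, with 270 at Lyl1, 250 at Flt3, 114 at Mycn, 101 at Hhex, 71.6 at Myb, 55.0 at Cebpa, 51.1 at Il7r, 34.8 at Cd34 and 22.9 at Kit. B lineage genes had one at 4 of 10, with 292 at Tcf3, 54.6 at Ebf1, the gene deleted in this line, 33.6 at Foxo1 and 33.0 at Blnk. Pax5, Cd79a, Igll1 and Vpreb1 had none.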

How the data were processed

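ChIP-seq of 34 samples in 17 groups of 2 replicates was used as deposited, and 4 input samples were not analysed here. Per the submitters' processing notes, the authors used bcl2fastq 1.8.4 (the study's methods name another version), aligned them to mm10 with Bowtie 1.1.1 and called peaks with HOMER, and replicates were merged into reproducible peaks (IDR). The lists deposited by the authors give a peak score, whose scale the headers do not name, and the distance to the nearest start. Peaks that shared 1 bp were called overlapping. Genes came from the nearest RefSeq transcript (GRCm38.p6), and the gene feature at a named peak's centre from GENCODE M21. Coordinates are mm10, counted from the first base.

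The 26 comparisons used Fisher's exact tests, and Mantel-Haenszel odds ratios where matched on 5 classes. Letters were searched in 200 bp windows (Python 3.11.15, scipy 1.17.1, pandas 2.3.3, numpy 2.4.6, pysam 0.24.0, samtools 1.23.1, figures with matplotlib 3.10.9). Functions were tested on simulated data. Each value counts peaks, whose read depth was not used here. The alternatives were a score of at least 30, centre overlap, promoters set by distance, 1 peak a gene, score or GC matching, lists of equal length, protein-coding genes only, a stricter distal class and a 100 bp window.

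Named promoters were those with the highest LP RUNX1 score in all, with LP CTCF, without coactivators or with Med12 in 1 stage, the highest Notch1-IC score in Phase 1, the highest sgCont score among peaks missing after a guide, the most RUNX letters, and genes of the lists. Hey2, Nfe2 and Hnrnpf were named after their values were seen. The peaks, comparisons and lists were chosen with earlier results of these data known. Of the listed genes, those without a RefSeq start in the table were not analysed here.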

Additional observations from a re-analysis of the deposited data

Results flagged for a closer look

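In 4 comparisons the same contrast between stages or guides gave different results between classes of peaks, by a test of that difference. For Med12 found in 1 stage only, the odds that it was LP were 3.34 times those at shared distal peaks, and for p300 the ratio was 2.39. The sgCont Med12 list of Phase 1 held 59.5% of the LP-only and 53.6% of the Phase 1-only Med12 peaks at constant promoters. For Med12 found again after sgCbfb the odds ratio between constant promoters and shared distal peaks was 14.4. For RUNX1 found again after sgCTCF, the odds ratio between constant promoters with and without LP CTCF was 0.545. That comparison lay within constant promoters. Against shared distal peaks the odds ratio of 0.836 did not pass the Fisher's exact test (exact adjusted p = 0.21). After sgMed12 in Phase 1, RUNX1 was found again at 66.7% of constant promoter peaks with LP CTCF and 77.4% without, which was not tested. All 4 tests count peaks of merged lists and carry no error between cultures.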

How the results depend on the processing

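Of 213 alternative values of the 26 comparisons, 206 kept their direction and their side of the threshold. Matching on 5 classes of peak score changed most of the others. With it, the odds ratio against shared distal peaks turned to 0.880 for Phase 1 Med12, to 0.973 for Phase 1 p300 and to 0.866 for RUNX1 found again after sgMed12, that of LP p300 no longer passed at 1.101, and that of RUNX1 found again after sgCTCF passed at 0.743. LP CTCF at constant against LP-specific promoters turned to 1.07 with a minimum score of 30 and passed at 0.782 when the centre had to lie inside the other peak. Why these values moved was not tested beyond the matching itself. No paired analysis was possible because each list merges its replicates, and for the same reason no replicate could be left out.

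Absence from a list depends on the depth and threshold of that list, and the guide lists of RUNX1 held 874 to 2094 peaks and the lists of Notch1-IC 152 to 1585. A constant promoter without a peak in them cannot be called unbound.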
